A study of Homo sapiens with 6 samples.

Results

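MUC1 sits in a dense stretch of chromosome 1q22, and the genes on either side of it were examined in neuroendocrine prostate cancer cells in which an inducible short hairpin RNA (shRNA) silenced MUC1. The genes were chosen by symbol and position, with MUC1 left out. They were SLC50A1, DPM3, KRTCAP2 and TRIM46 on one side and THBS3 and MTX1 on the other, 6 of the 28008 gene symbols in the deposited count table. All 6 were among the 17026 genes that passed the filter on low counts. None of the 6 was called at an adjusted p under 0.05, a threshold that 4.87% of all tested genes passed, so 0 of 6 is near that share. MUC1 fell by 1.32 on the log2 scale.

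MUC1 encodes a transmembrane mucin of epithelial cells that is cleaved into an extracellular subunit and a transmembrane subunit, MUC1-C. A hairpin is processed into a small RNA that guides Argonaute proteins to complementary transcripts, mostly in the cytoplasm, so a gene is matched by the sequence of its RNA and not by its place on a chromosome. Genes that stand close together can still be linked in other ways, through shared promoters, overlapping transcripts or local chromatin. SLC50A1 is a sugar transporter of the SWEET family, DPM3 anchors the synthase that makes dolichol-phosphate mannose, and KRTCAP2 is a subunit of the oligosaccharyltransferase that attaches glycans to asparagine. TRIM46 organizes microtubules at the axon initial segment, THBS3 is a secreted thrombospondin of the extracellular matrix, and MTX1 is a metaxin of the mitochondrial outer membrane.

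The cells were NCI-H660 (H660), a human neuroendocrine prostate cancer (NEPC) line, transduced with a MUC1 shRNA in the pLKO-tet-puro vector and selected in puromycin. DOX-negative cells received 0.1% DMSO as vehicle (n = 3), and DOX-positive cells received doxycycline (DOX) at 500 ng/ml for 7 days, which switches on the hairpin (n = 3). Both groups carried the vector, and no library of DOX-treated cells with a control hairpin was analysed here, so an effect of the hairpin and an effect of DOX itself cannot be told apart. A single hairpin sequence was used. Bulk RNA also cannot tell fewer cells of a type from less RNA per cell. Total counts were between 47620696 and 74061121 per library. Each of the 6 neuroendocrine marker genes was expressed, leukocyte markers summed to at most 0.0812 CPM (reads of a gene relative to library size, after TMM scaling), and 1 of 5 luminal prostate markers reached a mean of 1 CPM. Endothelial markers summed to 3.10 to 4.79 CPM without DOX and to 6.41 to 8.07 CPM with DOX, and fibroblast markers to 25.2 to 30.7 and 23.3 to 27.4 CPM. Neuroendocrine markers summed to 1552 to 1758 CPM without DOX and to 1255 to 1598 CPM with DOX. The part of these markers in the results was not tested.

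In the RefSeq annotation of GRCh38.p14, the 7 genes span 78465 bp, and the order along the chromosome is SLC50A1, DPM3, KRTCAP2, TRIM46, MUC1, THBS3 and MTX1. SLC50A1 lies on the plus strand at chr1:155135375-155138853. DPM3 lies on the minus strand at chr1:155139891-155140531, tail to tail with SLC50A1 across 1037 bp. KRTCAP2 follows on the minus strand at chr1:155169408-155173304, after a gap of 28876 bp. TRIM46 reads the other way, at chr1:155173849-155184971, so that KRTCAP2 and TRIM46 start head to head with 544 bp between them. The end of TRIM46 is 852 bp from the end of MUC1, which lies on the minus strand at chr1:155185824-155192915. THBS3 is next in the same direction as MUC1, at chr1:155195588-155209178, and its end is 2672 bp from the MUC1 start. MTX1, on the plus strand at chr1:155208695-155213839, overlaps the outermost THBS3 transcript head to head over 484 bp, and starts 797 bp from the other annotated THBS3 start. Closeness was therefore greatest for TRIM46, whose transcripts end toward those of MUC1.

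The sequences before the starts of KRTCAP2, TRIM46 and MUC1 are shown because the first 2 genes share the short interval between them and differ widely in level, and because MUC1 is the target. Each run holds the 250 bases before the outermost RefSeq start, 5′ to 3′ on the strand of the gene. Capitals mark matches on either strand. The letters searched were TATAAA (the TATA box), CCAAT (the CCAAT box), CCGGAAGT (an ETS site), GGGCGG (a GC box) and CACGTG (an E-box), besides the palindromic NRF1 site.
KRTCAP2: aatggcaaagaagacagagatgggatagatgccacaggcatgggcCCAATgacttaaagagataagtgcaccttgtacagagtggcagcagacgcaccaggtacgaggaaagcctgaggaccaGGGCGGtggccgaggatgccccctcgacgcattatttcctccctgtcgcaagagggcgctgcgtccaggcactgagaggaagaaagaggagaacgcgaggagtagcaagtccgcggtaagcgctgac
TRIM46: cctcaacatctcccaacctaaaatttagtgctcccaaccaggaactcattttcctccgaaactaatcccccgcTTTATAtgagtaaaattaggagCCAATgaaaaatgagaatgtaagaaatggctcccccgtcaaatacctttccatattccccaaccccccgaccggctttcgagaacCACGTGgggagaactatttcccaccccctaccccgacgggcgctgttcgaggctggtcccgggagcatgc
MUC1: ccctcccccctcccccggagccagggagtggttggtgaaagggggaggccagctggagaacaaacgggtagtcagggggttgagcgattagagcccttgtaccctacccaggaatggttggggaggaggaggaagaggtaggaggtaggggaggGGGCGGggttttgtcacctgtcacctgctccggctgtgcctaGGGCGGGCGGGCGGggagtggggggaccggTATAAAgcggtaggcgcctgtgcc
The KRTCAP2 run is chr1:155173305-155173554 on the minus strand, the TRIM46 run is chr1:155173599-155173848 on the plus strand, and the MUC1 run is chr1:155192916-155193165 on the minus strand. In the MUC1 run, TATAAA begins at position -24 from the start, and GGGCGG occurs 4 times, with 3 of the matches overlapping. The KRTCAP2 run has CCAAT at -205 and GGGCGG at -127. In the TRIM46 run, the letters TATAAA are on the opposite strand at -177, CCAAT is at -155 and the palindrome CACGTG at -70. These matches describe letters only.

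RefSeq gives 12 promoter windows of 300 bases (250 before and 50 after a start) for the 6 flanking genes, several of which overlap within a gene. TATAAA was found in 1 of the 12, against 11.5% of all 35116 windows. GGGCGG was found in 9 of 12 windows (45% of all windows), CCAAT in 5 (34.6%) and CCGGAAGT in 3 (4.14%), the last in DPM3 and TRIM46. CACGTG was in 1 window (7.26%), and the NRF1 site was in 0 (1.24%). GC content of the outermost windows ran from 54% for TRIM46 to 69.67% for THBS3, around a median of 58.67% over all windows, and was 65.67% for MUC1.

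The flanking genes differed in level by more than 2 orders of magnitude. On the deposited TPM scale, which is per length, KRTCAP2 was the highest at 140.3 ± 22.9 TPM (SD, n = 6 libraries of both groups). DPM3 followed at 29.5 ± 5.05 TPM, SLC50A1 at 23.4 ± 3.01 TPM and MTX1 at 3.30 ± 0.41 TPM. THBS3, at 1.94 ± 0.30 TPM, and TRIM46, at 0.89 ± 0.11 TPM, were the lowest. The order was the same in 6 of 6 libraries. The narrowest steps were from DPM3 to SLC50A1, where the ratio within a library was between 1.10 and 1.45, and from MTX1 to THBS3, where it was between 1.41 and 1.94. Across libraries, the TPM ranges of DPM3 (20.9 to 34.5) and SLC50A1 (19.0 to 27.8) overlapped. A single structured RNA, RN7SK or SNORD3A, took 25.7% to 34.5% of the TPM of a library, and comparisons between groups were made on counts.

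MUC1 changed place in this order. It was at 21.5 to 31.6 TPM in the DOX-negative libraries, above SLC50A1 in 3 of 3 and above DPM3 in 1 of 3. In the DOX-positive libraries it was at 9.48 to 14.5 TPM, below both genes in every library and still above MTX1, THBS3 and TRIM46.

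The target was checked first. Without DOX, MUC1 was at 88.2, 90.2 and 79.6 CPM (values stand in the order of replicates 1, 2 and 3). With DOX it was at 36.7, 37.2 and 29.9 CPM. The groups did not overlap, and the edgeR quasi-likelihood test gave a log2 change of -1.32 (SE 0.096) with an adjusted p of 0.00017. MUC1 was left at 40.2% of its DOX-negative level (95% interval 34.7% to 46.4%).

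The genes that end or start nearest to MUC1 are TRIM46 and THBS3. TRIM46 was at 6.32, 5.96 and 6.62 CPM without DOX and at 5.81, 6.24 and 5.75 CPM with DOX. The DOX-positive replicate 2 value lay inside the DOX-negative range, so the groups overlapped. Its log2 change was -0.087 (SE 0.11, 95% interval -0.32 to 0.14), with an adjusted p of 0.69 by edgeR. Between 315 and 439 reads per library counted toward TRIM46, the fewest among the flanking genes.

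THBS3 had the largest difference of the 6 genes. Its values were 12.7, 11.5 and 13.3 CPM without DOX and 10.8, 11.5 and 9.49 CPM with DOX. The groups did not overlap, but replicate 2 of the DOX-negative group (11.541 CPM) and replicate 2 of the DOX-positive group (11.511 CPM) all but coincided. The log2 difference was -0.24 (SE 0.10, 95% interval -0.46 to -0.016), and the edgeR test gave an unadjusted p of 0.038 and an adjusted p of 0.21. In TPM the groups overlapped, with 1.88 to 2.21 TPM without DOX and 1.58 to 2.23 TPM with DOX. Over 18 other settings the difference ranged from -0.30 to -0.14 and the lowest adjusted p was 0.10. RefSeq places an antisense RNA, THBS3-AS1, across part of THBS3, without a row of its own in the count table. The strand setting of the counting was not given in the sources used here, so reads of the pair cannot be told apart.

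KRTCAP2 was at 89.3, 92.4 and 84.4 CPM without DOX and at 94.1, 102.0 and 98.2 CPM with DOX. All 3 DOX-positive values were above all 3 DOX-negative values, by a margin of less than 2 CPM between the nearest libraries. The log2 difference was 0.15 (SE 0.072, 95% interval -0.012 to 0.30), with an unadjusted p of 0.068 and an adjusted p of 0.28 by edgeR. In TPM its groups overlapped, at 106.8 to 151.4 and 125.2 to 173.7 TPM. A GENCODE annotation of the same build holds a minus-strand transcript, AL713999.1, that runs from within MUC1 to KRTCAP2 (chr1:155169409-155187272) and has no row in the count table. A pseudogene, KRTCAP2P1, at chr2:44996412-44996904 also has no row there, so the split of reads between KRTCAP2 and this copy is uncertain.

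MTX1 was at 14.0, 15.1 and 17.5 CPM without DOX and at 14.96, 16.1 and 14.3 CPM with DOX. All the DOX-positive values lay within the DOX-negative range. The log2 difference was -0.035 (SE 0.10, 95% interval -0.26 to 0.19), with an adjusted p of 0.88 by edgeR. It turned positive without DOX-negative replicate 3 (0.051) or DOX-positive replicate 3 (0.0040). A pseudogene copy, MTX1LP, lies at chr1:155230976-155234451 and has no row in the table, so the split of reads between gene and copy is uncertain.

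In CPM, the 2 genes farthest from MUC1 both had their highest value in DOX-positive replicate 2, as KRTCAP2 did. In TPM, SLC50A1 was highest in DOX-positive replicate 1 (27.8 TPM) and DPM3 in DOX-negative replicate 2 (34.5 TPM). SLC50A1 was at 67.0, 67.1 and 65.2 CPM without DOX and at 65.3, 77.0 and 67.0 CPM with DOX. Its log2 difference was 0.071 (SE 0.080, 95% interval -0.10 to 0.24), with an adjusted p of 0.67 by edgeR. DPM3 was at 19.2, 21.0 and 16.6 CPM without DOX and at 18.3, 25.7 and 18.0 CPM with DOX. The groups overlapped for both genes. The log2 difference of DPM3 was 0.12 (SE 0.14, 95% interval -0.18 to 0.42), with an adjusted p of 0.67. Without DOX-positive replicate 2, both differences changed sign, to -0.0031 for SLC50A1 and -0.060 for DPM3.

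**Figure D1:**
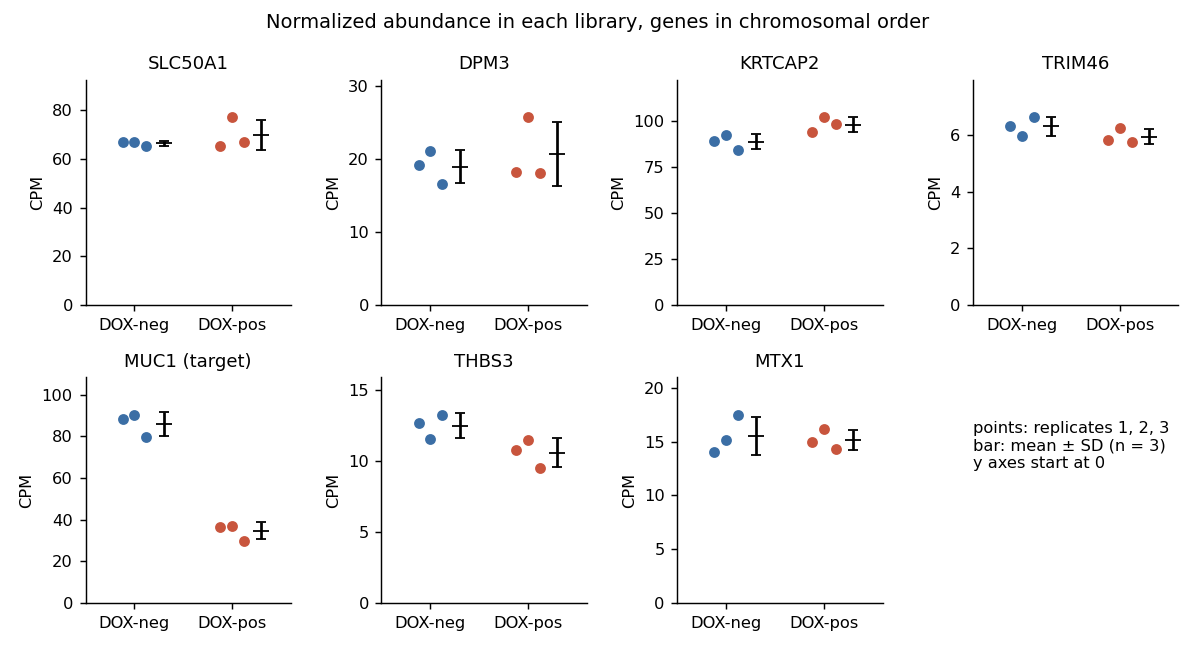
Normalized abundance (CPM, y axes from 0) of the 6 flanking genes and MUC1 in each of the 3 DOX-negative and 3 DOX-positive libraries, with the mean and SD beside each group. MUC1 falls from 79.6 to 90.2 CPM to 29.9 to 37.2 CPM, while the groups of the flanking genes overlap or, for KRTCAP2 and THBS3, lie next to each other.

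Of the 6 flanking genes, 0 were called by edgeR at an adjusted p under 0.05, against 4.87% of all tested genes (829 of 17026, 2.91% higher and 1.96% lower with DOX). THBS3 was the 1 gene with an unadjusted p under 0.05, a threshold that 21.1% of tested genes passed. The groups did not overlap for 2 of the 6 genes, against 28.1% of tested genes. Point estimates were above 0 for 3 genes and below 0 for 3. Their median log2 difference was 0.018, beside 0.00034 over all tested genes, and their median absolute difference was 0.11, beside 0.13. An absolute difference above that of THBS3 was found for 27.9% of tested genes. DESeq2 also called 0 of the 6, where it called 8.43% of the genes it tested.

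The intervals set limits on how far each neighbour could have moved. Expressed as a share of the DOX-negative level, the lowest bound over the 6 genes was 72.5%, for THBS3, and the highest was 134.2%, for DPM3. For SLC50A1 the interval ran from 93.1% to 118.5% and for KRTCAP2 from 99.1% to 123.3%. The THBS3 interval ended at 98.9%, although THBS3 was not called after adjustment. Each interval excluded the MUC1 fall, whose upper bound was 46.4%. The MUC1 change was 5.48 times the THBS3 difference on the log2 scale. Missing the threshold does not show that these genes were unaltered.

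**Figure D2:**
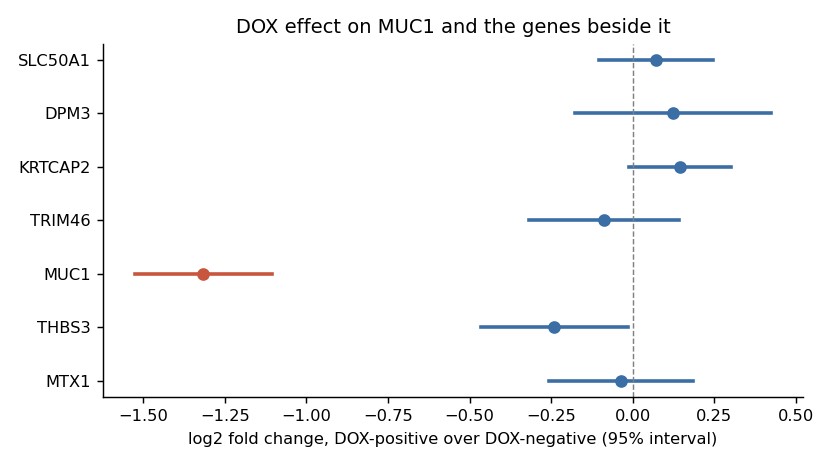
Log2 fold change (DOX-positive over DOX-negative, points) with 95% intervals (lines) for MUC1 and its neighbours, listed from top to bottom in chromosomal order. MUC1 is at -1.32, and the neighbours lie between -0.24 and 0.15.

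The ratio of each neighbour to MUC1 within a library does not depend on how libraries are scaled. SLC50A1 gave 0.74 to 0.82 counts per MUC1 count without DOX and 1.78 to 2.24 with DOX. For KRTCAP2 these ratios were 1.01 to 1.06 and 2.57 to 3.29, and for DPM3 they were 0.21 to 0.23 and 0.50 to 0.69. TRIM46 gave 0.066 to 0.083 without DOX and 0.16 to 0.19 with DOX. The ratios of THBS3 were 0.13 to 0.17 and 0.29 to 0.32, and those of MTX1 were 0.16 to 0.22 and 0.41 to 0.48. All 6 ratios were higher in every DOX-positive library than in any DOX-negative library. The fold was 2.76 for KRTCAP2, 2.70 for DPM3, 2.62 for SLC50A1, 2.44 for MTX1, 2.35 for TRIM46 and 2.11 for THBS3. Each exact two-sided permutation test gave p = 0.10 (0.10 after adjustment over 6 genes), the smallest value that 3 against 3 libraries allow. All 6 ratios share the MUC1 counts, so they are not independent of each other. The fall of MUC1 alone raises each ratio, so the rise does not show a change in a neighbour. A ratio would have stayed level only if the neighbour had fallen by the same factor as MUC1.

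**Figure D3:**
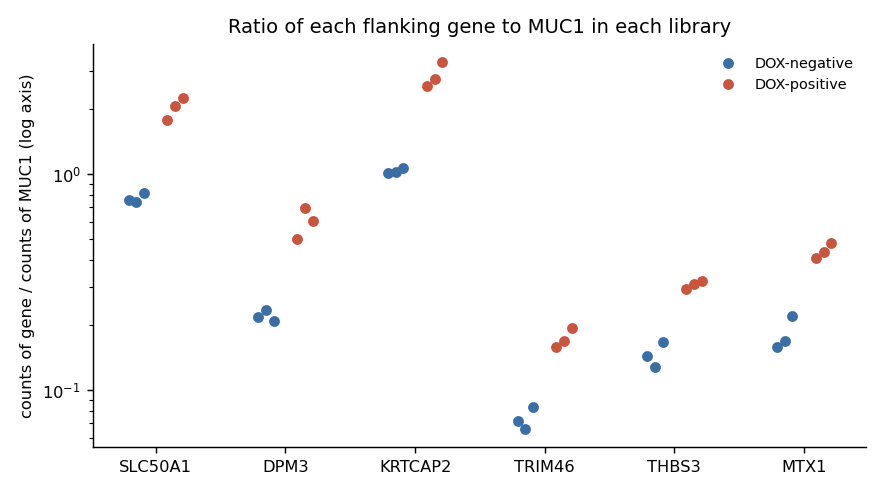
Counts of each flanking gene divided by the counts of MUC1 in the same library, on a log axis, with 3 DOX-negative and 3 DOX-positive libraries per gene. The DOX-positive points are above the DOX-negative points for all 6 genes, by 2.11 to 2.76 fold. The shared MUC1 denominator falls with DOX, which by itself raises every ratio.

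Neighbouring pairs were then compared within each library. KRTCAP2 and TRIM46, with starts 544 bp apart, differed most in level, with 131.7 to 176.5 times more TPM for KRTCAP2. That ratio was 145.8, 160.0 and 131.7 without DOX and 167.1, 169.0 and 176.5 with DOX. The log2 ratio of TRIM46 to KRTCAP2 was lower by 0.23 with DOX without overlap between groups, and the exact two-sided permutation test gave p = 0.10 (0.15 after adjustment over 3 pairs). The ratio of MTX1 to THBS3 was 1.41, 1.68 and 1.69 without DOX and 1.79, 1.80 and 1.94 with DOX. This pair also did not overlap between groups, with a log2 difference of 0.21 and an exact p of 0.10 (0.15 adjusted). The share of other gene pairs without overlap was not computed, while 28.1% of single tested genes did not overlap. Each pair difference follows from the differences of its genes given above and is not a separate result about the pair. SLC50A1 and DPM3, which end toward each other, had a ratio of 0.69 to 0.91, and its log2 difference of -0.048 was within the spread of the replicates (exact p = 0.70).

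Farther from MUC1, 28 more protein-coding genes lie within 500 kb, and 26 of them were tested. edgeR called 2 of the 26 (7.69%, beside 4.87% of all tested genes), 1 in each direction. RUSC1, an adaptor protein gene that starts 128.0 kb from the MUC1 start, rose from 37.5 ± 2.25 to 52.8 ± 6.12 CPM (SD, n = 3), a log2 change of 0.49 (SE 0.096, adjusted p = 0.017 by edgeR). KCNN3, a calcium-activated potassium channel gene on the other side, fell from 3.68 ± 0.15 to 2.45 ± 0.14 CPM, a log2 change of -0.59 (SE 0.13, adjusted p = 0.023). RUSC1 was no longer called without DOX-negative replicate 2 (adjusted p = 0.076) or 3 (0.12). KCNN3 was lost without DOX-negative replicate 1 (0.061), 2 (0.12) or 3 (0.082) or DOX-positive replicate 3 (0.065). The groups did not overlap for 7 of the 26 genes (26.9%, near the 28.1% of all tested genes), and the median log2 difference was -0.072, with 12 genes above 0 and 14 below. The nearest tested gene beyond SLC50A1, EFNA1, an ephrin ligand, differed by -0.10 (SE 0.093, adjusted p = 0.58). Of the tested genes that start between MUC1 and RUSC1 or between MUC1 and KCNN3, none was called by edgeR. That does not show that they were unaltered. Among the 26 genes, RUSC1 and KCNN3 included, 5 had an unadjusted p under 0.05 by edgeR, a threshold that 21.1% of all tested genes passed.

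**Figure D4:**
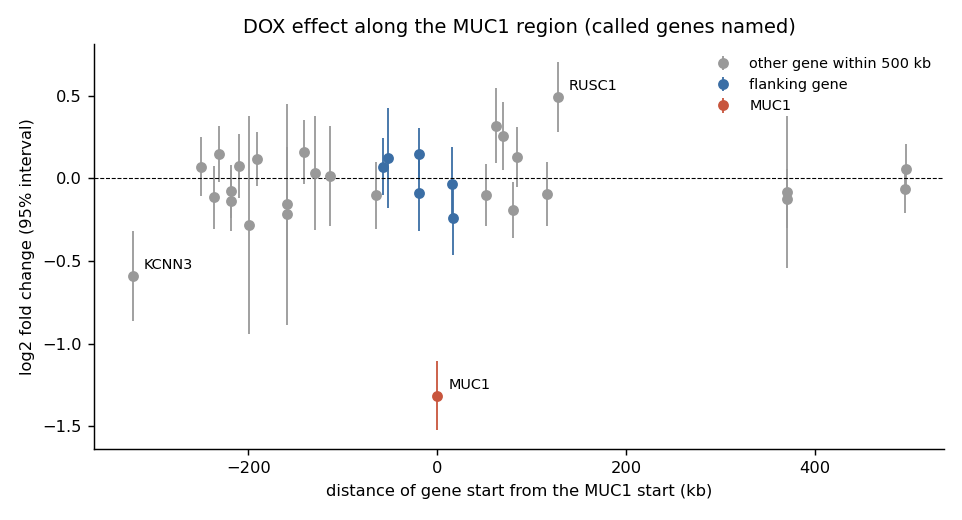
Log2 fold change with 95% interval for MUC1, the 6 flanking genes and 26 other protein-coding genes, plotted by the distance of the gene start from the MUC1 start in kb (positive toward higher coordinates). MUC1 stands alone at -1.32, and the other called genes are RUSC1 (0.49) and KCNN3 (-0.59).

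Genes that act with the neighbours, or belong to their families, were compared in 7 hand-written lists of 62 genes. Of these, 58 were tested and 4 were called (6.90%, near the 4.87% of all tested genes), 3 higher and 1 lower with DOX (2.91% and 1.96% of all tested genes). For KRTCAP2, the 11 oligosaccharyltransferase genes had 0 calls, with 9 estimates above 0 and a median of 0.046. RPN1, a structural subunit of that complex, had the smallest p of that list and differed by 0.17 (SE 0.073, adjusted p = 0.21 by edgeR).

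Among 13 genes of the dolichol-phosphate mannose pathway listed for DPM3, 1 was called. SRD5A3, a reductase that makes dolichol, rose from 8.17 ± 0.16 to 12.1 ± 2.05 CPM, a log2 change of 0.57 (SE 0.12, adjusted p = 0.023). The partners of DPM3 in the synthase differed by 0.0048 for the catalytic subunit DPM1 and by 0.29 for the regulatory subunit DPM2 (adjusted p = 0.99 and 0.062). DPM2 was called in 3 of 18 other settings. SRD5A3 was not called without DOX-negative replicate 2 (adjusted p = 0.10) or 3 (0.12), or without DOX-positive replicate 3 (0.056).

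For MTX1, 10 of 11 listed genes of mitochondrial membrane assembly were tested and 1 was called. MICOS10, a subunit of the complex that shapes cristae (MINOS1 in the table), fell from 39.0 ± 2.27 to 29.4 ± 1.59 CPM, a log2 change of -0.40 (SE 0.083, adjusted p = 0.021). The other metaxins, MTX2 and MTX3, differed by 0.12 and -0.17, and SAMM50, their partner in outer membrane assembly, by 0.0057. The MICOS10 call was lost without DOX-negative replicate 1 (adjusted p = 0.073), 2 (0.10) or 3 (0.080).

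Among the thrombospondins, 3 of 4 were tested and THBS1 was called. THBS1, an inhibitor of angiogenesis, was at 16.4, 14.3 and 15.3 CPM without DOX and at 25.2, 28.6 and 33.5 CPM with DOX. It rose by 0.92 on the log2 scale (SE 0.11, adjusted p = 0.0024), and each DOX-positive library was above each DOX-negative library. THBS4 and COMP had estimates below 0, as THBS3 did, at -0.33 and -0.49 (adjusted p = 0.15 and 0.41). COMP averaged 19.5 counts per library.

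Of 10 sugar transporter genes listed with SLC50A1, 8 were tested and 1 was called. SLC2A12, a facilitative glucose transporter, rose from 4.29 ± 0.56 to 7.80 ± 2.05 CPM, a log2 change of 0.86 (SE 0.17, adjusted p = 0.019). It was not called without DOX-negative replicate 2 (adjusted p = 0.078) or 3 (0.13). For TRIM46, 0 of 5 class I TRIM relatives and 0 of 8 axon initial segment genes were called. The smallest p in these lists belonged to TRIM67, with a difference of 0.27 (SE 0.10, adjusted p = 0.16), and to ANK3, the ankyrin that scaffolds the segment, with 0.23 (SE 0.083, adjusted p = 0.14).

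**Figure D5:**
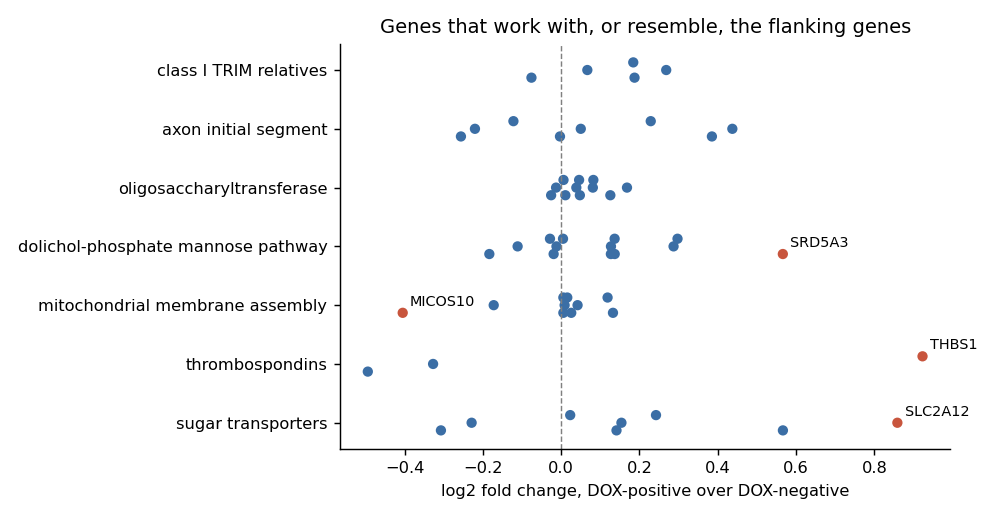
Log2 fold change (x axis) of 58 tested genes in 7 lists, with 1 point per gene and called genes named and in a second colour. The called genes are THBS1 (0.92), SLC2A12 (0.86), SRD5A3 (0.57) and MICOS10 (-0.40), and the oligosaccharyltransferase genes cluster near 0.

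Genes whose log2 CPM followed each neighbour most closely over the 6 libraries were taken from the 14586 genes that averaged 50 counts or more. The likeness is given as Pearson's r for description only. For SLC50A1 they were ASNA1, PTPRU and SDHA (r of 0.996, 0.994 and 0.993). SH2B2, THAP4 and SLC20A2 were closest to DPM3 (0.997, 0.996 and 0.995). KRTCAP2 was followed most closely by SIX6, LIMS2 and TPGS2 (0.995, 0.995 and 0.994). The closest genes were MED31, SETDB1 and TEP1 for TRIM46 (0.998, 0.983 and 0.981), and CCDC157, TBC1D7-LOC100130357 and TNFRSF25 for THBS3 (0.992, 0.989 and 0.986). PRICKLE4, MTHFSD and GOSR2 followed MTX1 most closely (0.986, 0.986 and 0.984). With 6 libraries such values are common: between 47 genes for MTX1 and 778 genes for KRTCAP2 had an r above 0.9.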

How the data were processed

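RNA-seq libraries of H660 cells (3 DOX-negative and 3 DOX-positive, grouped by title) were made from total RNA with a stranded mRNA kit. The authors deposited raw gene counts, aligned with STAR to GRCh38 per the labels, and TPM. TPM, also as deposited, relate counts to gene length within a library of fixed total. The strand setting, annotation and tool versions were not given in the sources used here. 0 columns were left unmapped.

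Counts were filtered with filterByExpr, scaled by TMM and tested with edgeR 4.0.16 (R 4.3.3, robust glmQLFit and glmQLFTest, no covariate), two-sided, with Benjamini-Hochberg adjustment over 17026 genes. SE came from the F statistic and 95% intervals from the t quantile. The code was tested on simulated data. Other settings were no scaling, RLE or upper-quartile scaling, 2 other filters, DESeq2 1.42.0, limma-voom and limma-trend on log2 TPM (limma 3.58.1), no robust option, a replicate block and leaving out each library. Ratios were compared by exact permutation tests (SciPy 1.17.1). Coordinates and promoter windows came from RefSeq GRCh38.p14, which matched 25658 of 28008 symbols.

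The genes named are the 6 neighbours and MUC1, called genes within 500 kb, the nearest tested gene on either side (1 of them is not reported here), called genes of each list or else the one with the smallest p, and the 3 genes most like each neighbour. Partners of a neighbour in its complex or family (DPM1, DPM2, MTX2, MTX3, SAMM50, THBS4 and COMP) were added after their values were seen. The genes, lists and rules were chosen with earlier results of these data known. Libraries of a group differed by more than sampling noise (chi-square per degree of freedom 15.6 to 95.1), so none was the same library deposited again; separate preparations from 1 culture would also differ by more than that noise. Intervals cover the spread between these cultures only.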

Additional observations from a re-analysis of the deposited data

How the results depend on the processing

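None of the 6 neighbours was called under any of the 18 alternatives, 106 values in all (TRIM46 had no value in the fits with a minimum mean TPM of 1), while these settings called 0% to 8.43% of the genes they tested. Leaving out single libraries gave ranges of -0.0031 to 0.12 for SLC50A1, -0.060 to 0.21 for DPM3, 0.11 to 0.18 for KRTCAP2, -0.13 to -0.057 for TRIM46, -0.30 to -0.17 for THBS3 and -0.10 to 0.051 for MTX1. Signs turned for SLC50A1 (-0.0031) and DPM3 (-0.060) without DOX-positive replicate 2, and for MTX1 without DOX-negative replicate 3 (0.051) or DOX-positive replicate 3 (0.0040). The median over the 6 genes was -0.069 to 0.051 when libraries were left out. On log2(TPM + 0.1) it was 0.090 over the 5 genes with a value there, without TRIM46, and so is not comparable with the median over 6. The cause was not tested.

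Over all genes, 829 calls became 1355 with DESeq2 and 0, 30 and 35 in the limma-trend fits on log2(TPM + 1) unfiltered, log2(TPM + 1) filtered and log2(TPM + 0.1). In the unfiltered TPM fit, 1248 genes had an unadjusted p under 0.05 and MUC1 had an adjusted p of 0.29. Leaving out single libraries gave 58 to 1035 calls. The fewest, 58 and 127, came when DOX-negative replicate 3 or 2 was left out, then 375 when DOX-positive replicate 3 was. Of the genes within 500 kb, 0 were called in the 3 TPM fits and 0 to 2 when libraries were left out. Across all alternatives that gave a value, calls were lost for MUC1 in 1 of 18, RUSC1 in 5 of 18 alternatives, KCNN3 in 5 of 16, SRD5A3 and MICOS10 in 6 of 18, SLC2A12 in 3 of 16 and THBS1 in 3 of 18.

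Same-numbered libraries did not deviate together (correlations of -0.54, 0.019 and -0.11). With 3 libraries per group, these values cannot decide whether the numbers pair the samples. The fit with the replicate block called 998 genes, 0 of the 6 neighbours and 2 genes within 500 kb, with a THBS3 difference of -0.24 (adjusted p = 0.28) and a KRTCAP2 difference of 0.15 (adjusted p = 0.40).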
